A study of Homo sapiens with 4 samples.

Results

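In untreated LX-2 cells, 828 cytidine positions carried a mismatch difference of at least 10% and were not listed at all after TGF-β1. They were chosen by those 2 deposited facts, out of 1009 control positions of at least 10%, 8112 control positions and 17862 positions listed in either group. The LX-2 line, established from human stellate cells of the liver and labelled WT, is the one model used. The 4 libraries were 2 from cells given human recombinant TGF-β1 (5 ng/ml, 24 h) and 2 from untreated cells, described as biological replicates, all from polyadenylated RNA treated with sodium borohydride (NaBH4). The study asked how N4-acetylcytidine (ac4C) in RNA differs after TGF-β1.

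Hepatic stellate cells store retinoids in the healthy liver and turn into collagen-producing myofibroblasts during fibrosis, and TGF-β1 is a main driver of that change. N4-acetylcytidine is an acetylated cytidine made by the acetyltransferase NAT10. Borohydride reduces it to a form that reverse transcriptase can read as U, so that a modified C is recorded partly as T. The modification was first known from ribosomal and transfer RNA, where it often lies in the middle of a CCG, and its extent in messenger RNA is debated. No library is labelled as made without borohydride or without NAT10, so a listed position is a mismatch at C, and whether it is ac4C was not tested.

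The authors deposited 1 table per group, with 1 mismatch difference and 1 p-value per position. The mismatch difference is a fraction, printed here in percent, and what it subtracts from what is not stated. The tables hold no reads, no depth and no value per library, so depth is unknown, values carry no error between replicates, and the groups could not be tested against each other. A position absent from the TGF-β1 table has no value there: absence was not shown to be a level of 0. Whether a position was absent because it had too few reads, or because its transcript had changed in amount, was not tested. The TGF-β1 table was the longer one, with 11735 positions in 4444 genes against 8112 in 4384 genes in control. Of 15 stellate markers, 10 had a position after TGF-β1 and 6 in control, and none of them held one of the 828. None of 8 hepatocyte and 3 lymphocyte markers was listed in either table. Of 6 endothelial markers TIE1 and of 5 macrophage markers CD68 was listed in both, and of 4 cholangiocyte markers SOX9 in control. None of these held a member. NAT10 had 1 position after TGF-β1 and 2 in control, all outside the 828, and its partner THUMPD1 had 0 and 1.

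Absence from the TGF-β1 table was common at every level. It applied to 82.1% of control positions of at least 10%, which is the rule itself, beside 75.5% of all control positions and 74.6% of those under 10%. In the reverse direction 1684 of 2169 TGF-β1 positions of at least 10% (77.6%) were absent from the control table, beside 83.1% of all TGF-β1 positions. The members just inside the threshold were in AKR1A1 at 10.01%, MMP14 at 10.03% and SYNE2 at 10.03%. Just outside it, control-only positions stood in TCIRG1 at 9.98%, RBMX2 at 9.98% and SETD2 at 9.97%. The 181 control positions of at least 10% that were also listed after TGF-β1 had a median of 15.8% after TGF-β1 and 12.8% in control. The highest of them by control level were in MATR3 (51.4% after TGF-β1, 33.4% in control), TUBA4A (10.1% after TGF-β1, 33.0% in control), PODXL (42.1% after TGF-β1, 31.4% in control) and BCL7A (67.2% after TGF-β1, 29.7% in control).

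The bases around a member could be read where it lay in a RefSeq window around a gene start (250 bases before to 50 after, assembly GRCh38.p14). These windows held 23 members, and the listed base was C in all 23, as it was at all 316 TGF-β1 and all 215 control positions in windows. The 8 highest 5'UTR members found in the window of their own gene are shown, 5′ to 3′ on the transcript strand, because their flanks show the base context of some of the highest values. The capital is the listed cytidine, and runs are short where the window ends.
AP1AR, chr4:112231821-112231836, plus strand, 64.9% in control: ccatgcggacggCgag
UCHL1, chr4:41256912-41256936, plus strand, 58.9% in control: cctgggcggctcCgctagctgtttt
B2M, chr15:44711500-44711524, plus strand, 55.6% in control: gcgtcgcgctggCgggcattcctga
SDE2, chr1:225999315-225999339, minus strand, 38.5% in control: aggcttgaggttCgggtagtcggtg
CNOT8, chr5:154858636-154858660, plus strand, 34.2% in control: taggagcagatcCggggtagaggga
ARIH1, chr15:72474365-72474379, plus strand, 22.1% in control: ggactgttttctCtc
QRICH1, chr3:49094026-49094050, minus strand, 18.9% in control: taagatggcgccCagggagctgtga
GRB2, chr17:75405680-75405704, minus strand, 18.2% in control: ctcgcgggacacCgacggggagcgg
In 6 of these 8 the listed C was followed by G. Over all positions with both flanks in a window, G followed in 68.2% (47.3 to 83.6) of members, 59% (53.4 to 64.3) of TGF-β1 positions and 52.6% (45.9 to 59.3) of control positions, and these 3 intervals overlap. Among the 8 shown, the listed C was the middle of a CCG in UCHL1, CNOT8 and GRB2, and of a GCG in AP1AR and B2M. The listed bases of UCHL1, B2M and GRB2 lay at -4, -5 and -14 from the RefSeq start, so before it, though annotated as 5'UTR. Over all 22 members with both flanks inside a window, 6 lay in the middle of a CCG, a share of 27.3% (95% Wilson interval 13.2 to 48.2). The share was 9.94% (7.09 to 13.8) of 312 TGF-β1 positions and 12% (8.23 to 17.1) of 209 control positions, members included. Of every C in the first 49 transcribed bases of all windowed genes, 7.34% stood in the middle of a CCG. The listed positions could also lie before a start or in the window of another gene, so this share covers a different stretch. The motif was searched on the transcript strand, CCG stood in the transcribed end of 51.6% of the 35116 windows, and a match does not show a modified site. None of the 15 members in the window of their own gene had a TGF-β1 position within 100 bases on the same strand. Intervals here and below cover counting error only, and positions of 1 gene are not independent.

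Most members were not far above the threshold. Their median was 13.9%, with the middle of the distribution from 11.6 to 18.6%. Of the 828, 494 (59.7%) lay under 15%, 172 (20.8%) reached 20%, 57 (6.88%) reached 30% and 8 reached 50%.

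The highest value, 83.3%, was at chromosome 1 position 8355070 in the 3'UTR of RERE (ENSG00000142599), a nuclear receptor corepressor with an arginine-glutamate repeat. RERE had 4 coding positions after TGF-β1, at 14.6%, 16.1%, 3.93% and 10.0%, against 1 other control position at 2.88%. None of those 5 bases coincided. The next was a noncoding exon of MYL12BP1, a pseudogene of a myosin regulatory light chain, at 70.8%. Its gene had no TGF-β1 position and no other control position.

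Of the next genes, AP1AR, an adaptor-protein-1 associated regulator of vesicle traffic, had its only position in either table in its 5'UTR at 64.9%. UCHL1, a ubiquitin hydrolase abundant in neurons, likewise had 1 position in all, at 58.9% in the 5'UTR. B2M, the small subunit of MHC class I molecules, had its member in the 5'UTR at 55.6%. After TGF-β1 B2M was listed only in its 3'UTR, at 2.51%, 2.16% and 1.94%. KIRREL1, a cell adhesion protein of the immunoglobulin family, had 50.5% in its 5'UTR and no other position in either table.

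HNRNPA3P6, a pseudogene of an RNA-binding protein, had 50.3% and no other position. FGD5 had 50% in coding sequence and no other position. ACTG1, cytoplasmic gamma-actin, had members at the adjacent bases 81511114 and 81511115 of chromosome 17, at 42.7% and 49.7%, in a noncoding exon. Its 7 TGF-β1 positions lay elsewhere in the gene and ran from 1.86 to 5.89%. At its 1 base listed in both groups the value was 1.86% after TGF-β1 and 3.66% in control.

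Below these stood KDELR3, a receptor that returns proteins to the endoplasmic reticulum, at 46.4%, and STARD7, a lipid transfer protein, at 46.4%. TRPC4, a cation channel, had 45.1%, CHST7, a sulfotransferase, 44.7%, and GLI2, a transcription factor of the Hedgehog pathway, 43.9%. ILVBL had 43.3%, SPEG, a muscle kinase, 42.9%, and CAPRIN1, an RNA-binding protein of stress granules, 42.1%. ENSG00000227034 had 41.7%, PARP10, an ADP-ribosyltransferase, 41.1%, and METTL21A, a protein lysine methyltransferase, 39.96%. Among the 20 genes with the highest members, 6 had any TGF-β1 position and 14 had none. The highest TGF-β1 value in those 6 was 16.1%, in RERE. The 20 genes were ranked by their control value, so a lower TGF-β1 value beside it partly follows from the choice.

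**Figure D1:**
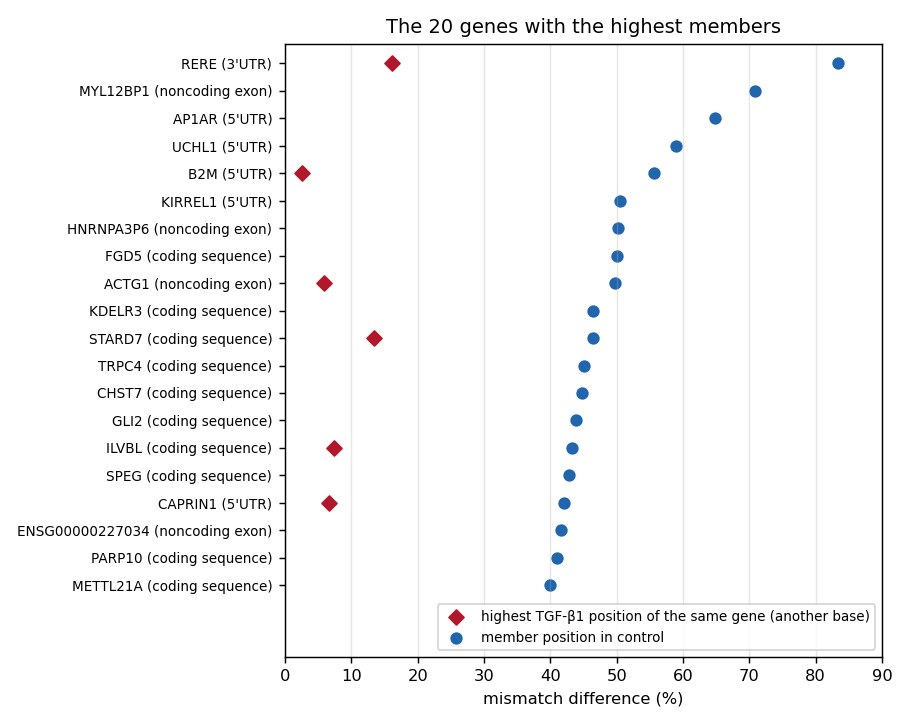
Mismatch difference (percent, x axis) of the 20 genes with the highest members, 1 row per gene with the segment of the member. Diamonds give the highest TGF-β1 position of the same gene, always at another base, and circles the member in control. The genes were ranked by the circles, so that circles lie above diamonds partly follows from the choice: 6 genes have a diamond, none above 16.1%, and the circles run from 39.96 to 83.3%.

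The authors' p-value of members reached up to 0.0483, with a median of 5.27e-06, or 0.000136 with values of exactly 0 left out. It was exactly 0 at 191 members, 23.1% (20.3 to 26.1). Of the 1684 positions of at least 10% listed after TGF-β1 only, 461 (27.4%, 25.3 to 29.6) had a p-value of exactly 0, and of the 181 high control positions listed in both groups, 6 (3.31%, 1.53 to 7.04). How a p-value of 0 arose is not stated. Among the 20 genes named above, the highest members of MYL12BP1, FGD5, KDELR3, CHST7, ILVBL, SPEG and ENSG00000227034 had a p-value of 0. The largest authors' p-values at the highest members of these 20 genes were 0.0258 in TRPC4, 0.00638 in ACTG1 and 0.00333 in CAPRIN1.

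Fewer members lay in coding sequence, and more in 3'UTRs and noncoding exons, than among control-only positions under 10%. Coding sequence held 508 members, 61.4% (58.0 to 64.6), against 75% (73.8 to 76.2) of the 5299 control-only positions under 10%. The 3'UTR held 178 members, 21.5% (18.8 to 24.4), against 12.7% (11.8 to 13.6). Noncoding exons held 57, 6.88% (5.35 to 8.82), against 2.57% (2.17 to 3.03), and no member was annotated to an intron. The 5'UTR held 85 members, 10.3% (8.38 to 12.5), against 9.64% (8.88 to 10.5), where the intervals overlap. The 181 high positions listed in both groups had 69.6% (62.6 to 75.8) in coding sequence and 18.2% (13.3 to 24.5) in 3'UTRs, and each of these intervals overlaps that of the members. Positions of at least 10% listed after TGF-β1 only had 69.4% (67.1 to 71.5) in coding sequence and 16.8% (15.1 to 18.7) in 3'UTRs. These differences were not tested beyond their intervals. By segment, the share of high control positions absent after TGF-β1, again the rule itself, was 80.1% in coding sequence, 84.2% in 5'UTRs, 84.4% in 3'UTRs and 90.5% in noncoding exons. For all control positions it was 74.0% in coding sequence, 74.4% in 5'UTRs, 83.0% in 3'UTRs and 87.7% in noncoding exons. Among control-only positions the coding share was 81.1% at 1 to 2%, 67.3% at 7.5 to 10%, 62.6% at 10 to 15%, 64.2% at 15 to 20%, 61.7% at 20 to 30% and 42.1% above 30%. Among members it thus differed little up to a level of 30% and was lower in the 57 positions above that.

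**Figure D2:**
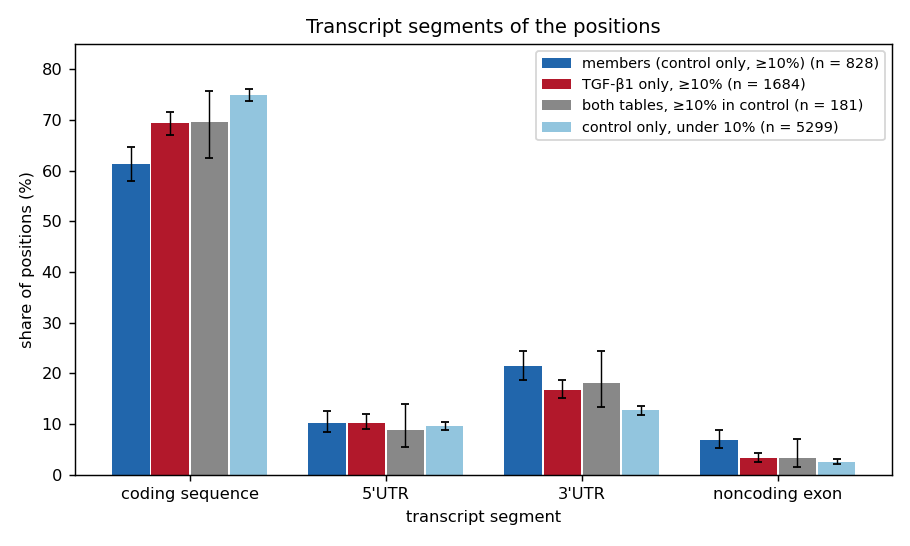
Share of positions (percent, y axis) in each transcript segment, for members, for positions of at least 10% listed after TGF-β1 only, for control positions of at least 10% listed in both groups, and for control-only positions under 10%. Error bars are 95% Wilson intervals: members have the lowest bar in coding sequence, at 61.4%, and the highest in noncoding exons, at 6.88%.

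Among 5'UTR members the median value was 14.6%, and 26 of 85 (30.6%, 21.8 to 41.0) lay within 50 bases of the nearest annotated transcript start, counted along the genome. That share was 26.6% (23.0 to 30.6) for control-only 5'UTR positions under 10%, 23.6% (17.9 to 30.4) for those of at least 10% listed after TGF-β1 only and 43.8% (23.1 to 66.8) for high control positions listed in both groups, all with overlapping intervals. Further 5'UTR members were in WWP2, a ubiquitin ligase, at 37.5%, UBE2D3, a ubiquitin-conjugating enzyme, at 32.3%, and RHEB, the GTPase that activates mTORC1, at 30.7%. UBE2D3 also had a coding position in both tables, at 51.5% after TGF-β1 and 13.8% in control. RHEB had a coding position after TGF-β1 only, at 21.8%. UBE2D3 and RHEB were picked after their values were seen.

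The 3'UTR members had a median of 13.8%, and 61 of 178 (34.3%, 27.7 to 41.5) lay within 500 bases of the nearest transcript end. The share was 50.2% (44.4 to 56.0) for 3'UTR positions of at least 10% listed after TGF-β1 only, an interval that does not overlap that of the members. It was 38.6% (35.0 to 42.3) for control-only positions under 10% and 45.5% (29.8 to 62.0) for high control positions listed in both groups, and both intervals overlap that of the members. Examples, chosen after their values were seen, are CALU, a calcium-binding protein of the secretory pathway, at 34.3%, and VEGFA, the angiogenic growth factor, at 30.1%. VEGFA had a TGF-β1 position 77 bases away in the same 3'UTR, at 23.7%.

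Of the 57 members in noncoding exons, 39 had no TGF-β1 position in their gene, and 18 (31.6%) had one. Of all 220 control positions in noncoding exons, members included, 96 (43.6%) had another TGF-β1 position in their gene. By RefSeq's gene types, 24 lay in pseudogenes, 5 in lncRNA genes, 8 in noncoding exons of protein-coding genes, and 20 in genes that were not matched. Ribosomal protein pseudogenes with a member, picked out after their values were seen, were RPL4P5 at 30.1%, RPL24P8 at 24.1%, RPL22P2 at 21.98% and RPS18P5 at 18.9%, with no TGF-β1 position, and RPL3P2 at 12.4% and RPL32P18 at 11.1%, with 2 and 1. Reads of such pseudogenes can come from a near-identical parent gene, so their place is uncertain. LINC02381 and MALAT1 were also picked after their values were seen. LINC02381 had 39.3% with no TGF-β1 position, and MALAT1, an abundant nuclear lncRNA, had a member at 21.1%. At another MALAT1 base listed in both groups the value was 36.2% after TGF-β1 and 1.87% in control.

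Fewer than 1 in 2 of the genes with a member had any position after TGF-β1. The 828 members lay in 767 genes, 17.5% of the 4384 control genes, and 364 of the 767 (47.5%, 43.9 to 51) had a TGF-β1 position. Of the 3617 control genes without a member, 2352 (65.0%, 63.5 to 66.6) had one. Counted the other way, 52.5% of member genes had no TGF-β1 position, beside 38.0% of all control genes and 35.0% of those without a member. Part of that gap follows from the rule, since a gene whose position is listed in both tables is kept by that position. Among genes with no position in both tables, 223 of 626 member genes (35.6%, 32.0 to 39.5) and 1072 of 2337 others (45.9%, 43.9 to 47.9) had a TGF-β1 position. With 1 control position and none in both tables, the shares were 29.6% (25.2 to 34.4) of 378 member genes and 43.8% (41.4 to 46.3) of 1629 others.

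The share of control-only positions whose gene had another TGF-β1 position was lower at higher control levels. It was 74.7% at 1 to 2%, 61.9% at 3 to 5% and 52.8% at 7.5 to 10%. Within the members it was 49.2% (44.8 to 53.6) at 10 to 15%, 48.8% (41.2 to 56.4) at 15 to 20%, 40% (31.5 to 49.1) at 20 to 30% and 43.9% (31.8 to 56.7) above 30%, and these 4 intervals overlap. For control positions listed in both groups, another TGF-β1 position stood in the gene at 88.8% for 1 to 2%, 84.5% for 7.5 to 10%, 87.5% for 10 to 15%, 79.5% (64.5 to 89.2) for 15 to 20% and 78.9% (56.7 to 91.5) for 20 to 30%. Above 30% it was 2 of 3 positions. Over all members the share was 393 of 828 (47.5%), against 59.7% (57.3 to 62.0) of the TGF-β1-only positions of at least 10% whose gene had another control position. Of members with a p-value of exactly 0, 42.9% had a gene with a TGF-β1 position, and of the others 48.8%. By segment the share of members was 56.2% in 3'UTRs, 46.9% in coding sequence, 43.5% in 5'UTRs and 31.6% in noncoding exons. For all control positions it was 64.0%, 69.1%, 66.8% and 43.6% in the same order, so noncoding exons were lowest there too. The part of depth and of transcript amount in these shares was not tested.

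**Figure D3:**
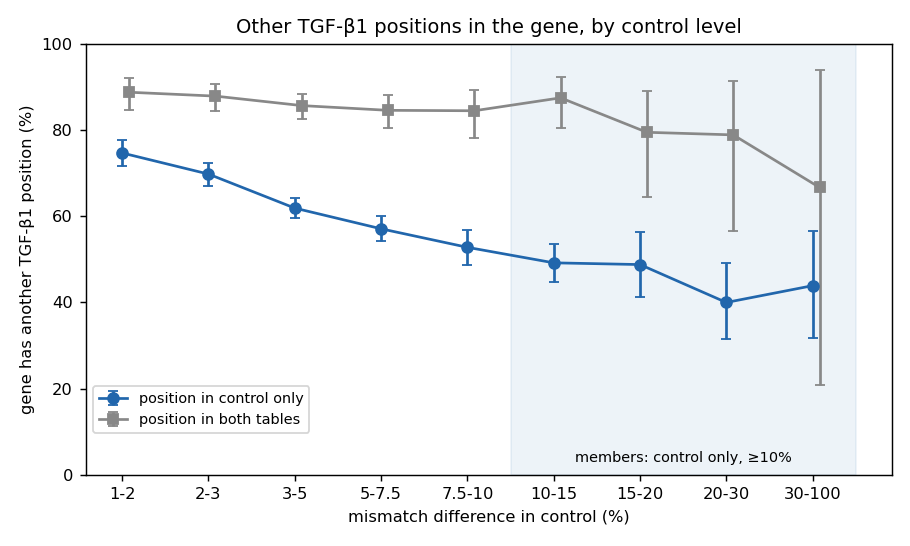
Share of control positions (percent, y axis) whose gene has another position after TGF-β1, by the control mismatch difference (percent, x axis). Circles are control-only positions, with the members in the shaded range, squares are positions listed in both tables, and bars are 95% Wilson intervals: the circles run from 74.7% at 1 to 2% down to 40% at 20 to 30%.

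The 403 member genes with no TGF-β1 position held 644 control positions, and 266 of them had 1 control position each. The other 137 had 2 or more, and 12 of these had 5 or more. MYLK, the kinase that phosphorylates myosin light chains for contraction, had 11 control positions and 0 after TGF-β1. Its 4 members had 23.4%, 19.9% and 15.8% in coding sequence and 10.7% in a 5'UTR, and its other 7 positions ran from 1.203 to 8.64%. RNF213, a large ubiquitin ligase, also had 0 after TGF-β1 and 11 in control, 1 of them a member at 11.5%. UBR4, an N-recognin ubiquitin ligase, had 0 and 9, with members at 12.6%, 11.0% and 10.9%.

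CHD2, a chromatin remodeller, had 0 positions after TGF-β1 and 6 in control, with a member at 23.7%. TGOLN2, a protein of the trans-Golgi network, had 0 and 6, with a member at 17.0%. ARHGAP35, FBN2, HEXIM1, IQCE, LIMCH1, MYO1E and PRKDC each had 0 positions after TGF-β1 and 5 in control. MYO1E and PRKDC, with members at 15.5% and 18.8%, tie with the rest and are named after their values were seen. ARHGAP35 had members at 11.9% and 10.6% in its 3'UTR. HEXIM1, an inhibitor of the elongation factor P-TEFb, had 14.1% in its 3'UTR and 10.9% in coding sequence. ABHD2, a lipase, had 0 positions after TGF-β1 and 4 in control, of which 3 were members in its 3'UTR at 14.7%, 12.5% and 10.7%.

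Genes with no TGF-β1 position spanned a median of 54443 bases, against 36749 bases in member genes that had one. The same order held in control genes without a member, at 50229 and 27086 bases.

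Most members were the only one of their gene. There were 708 genes with 1 member, 51 with 2, 6 with 3 and 2 with 4. Besides MYLK, 4 members lay in AHNAK2, a giant scaffold protein, at 15.7%, 13.2%, 12.03% and 11.6%, all in coding sequence. Its 4 TGF-β1 positions were all among its 11 control positions, and at each the value was higher after TGF-β1: 15.4% against 8.80%, 6.08% against 3.48%, 4.77% against 1.496% and 3.12% against 2.90%. The AHNAK2 members lay between 2077 and 9425 bases from the nearest of these 4. AHNAK, its relative, had 4 positions after TGF-β1 and 17 in control, 3 of them members at 14.7%, 12.3% and 10.9%.

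TLE1, a transcriptional corepressor, had members at 20.3% and 10.1% at adjacent bases and at 11.9% further on, and 1 TGF-β1 position of 2.98% at the other end of the gene. HIF1AN, the asparagine hydroxylase that inhibits HIF1A, had 22.4% in coding sequence and 14.7% and 12.3% in its 3'UTR. Its base listed in both groups had 5.86% after TGF-β1 and 3.67% in control. PPP1R26 and PREX1 each had 2 members, of at most 13.6% and 14.7%, and had 4 and 3 TGF-β1 positions against 8 in control each. Among all 828, 7 neighbouring pairs lay within 10 bases of each other, 6 of them at adjacent bases, and the strands were equal, with 414 members each.

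The 364 member genes that had a TGF-β1 position held 1177 positions after TGF-β1 and 1096 in control. PLEC alone had 74 and 26 of these. More were listed after TGF-β1 in 134 genes, fewer in 131 and equal numbers in 99. Over all genes the numbers were 11735 after TGF-β1 and 8112 in control, and by the rule every member gene has a control position. In 223 of the 364 (61.3%) none of the bases was listed in both tables. The same held for 1072 of the 2352 control genes without a member that had a TGF-β1 position. Each member gene holds a control-only base by the rule, which can raise its share. The highest TGF-β1 value of a gene exceeded its highest member in 102 genes and did not in 262. That order partly follows from the rule, which set a floor of 10% for members and none for TGF-β1 positions. A TGF-β1 position of at least 10% was present in 165 genes (45.3%). In 124 genes at least 1 such position was listed after TGF-β1 only, which is 16.2% of the member genes and 8.60% of the 1442 genes with such a position. Of these 1442 genes, 824 were among all 4384 control genes, member genes included. A difference between member genes and other control genes was not tested.

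The member genes with most TGF-β1 positions were PLEC, FLNA, EXOC7, ACTN1, MYO9B, RNF40, MPRIP, MINK1, SPTBN1 and MRC2. PLEC, the cytolinker plectin, had 74 positions after TGF-β1 and 26 in control, of which 1 was a member, at 10.4%. FLNA, the actin crosslinker filamin A, had 33 after TGF-β1 and 11 in control. Its member in coding sequence, chromosome X position 154359115, had 23.1%, above all 33 TGF-β1 values, which ran from 1.02 to 12.9%. EXOC7, a subunit of the exocyst, had 16 and 7 positions with members at 17.0% and 11.3%. MYO9B, an unconventional myosin, had 15 and 6 positions, and members at 19.2% and 14.8%. RNF40, a histone H2B ubiquitin ligase, had 15 and 7 and a 3'UTR member at 32.2%. MPRIP, which binds myosin phosphatase, had 14 and 10 and members at 25.8%, 14.1% and 11.7%.

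**Figure D4:**
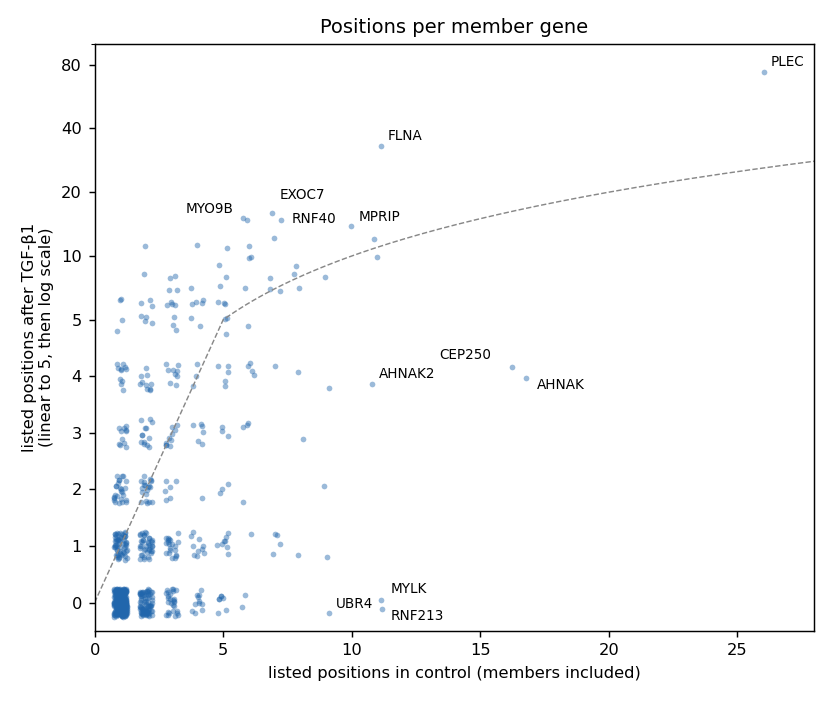
Listed positions per member gene after TGF-β1 (y axis, linear to 5 and then logarithmic) and in control (x axis, linear), 1 point per gene, moved by a small random amount so that points do not hide each other. The dashed line marks equal numbers: PLEC (74 after TGF-β1, 26 in control) and FLNA (33 and 11) lie above it, and MYLK and RNF213 (0 and 11 each) at the foot of the plot.

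Few members had a TGF-β1 position close by. A TGF-β1 position of the same gene lay within 100 bases of 52 members (6.28%, 4.82 to 8.14), against 18.2% (17.2 to 19.3) of control-only positions under 10%. For TGF-β1-only positions of at least 10%, looked up in the control table, it was 8.14% (6.92 to 9.54). These shares also count positions whose gene had no position to find. The gene had such a position for 47.5% of members and 63.6% of control-only positions under 10%. For TGF-β1-only positions of at least 10% it was 59.7%. Where the gene of a member had a TGF-β1 position, the median distance was 2372 bases. At 13 members the adjacent base was listed after TGF-β1. In SCAMP1-AS1 that base had 45.7% after TGF-β1, against 11.1% at the member, and in CRLF3 26.0% against 11.1%. DNAAF2 had 15.7% at the adjacent base after TGF-β1 and 10.3% at the member. The TGF-β1 base was the lower of the 2 in LPCAT3 (9.03% and 11.1%), CLPTM1L (3.32% and 12.4%), MINK1 (5.76% and 11.98%), CRIP2 (6.60% and 10.3%), IL27RA (5.74% and 11.1%), PTK7 (4.08% and 10.2%) and MMP14 (5.79% and 10.03%). The TGF-β1 value was higher at 5 of the 13 pairs and lower at 8, and all 13 members lay under 12.8%, near the threshold.

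Genes with 5 or more control positions held a member more often (86 did and 156 did not) than genes with 1 (378 did and 2093 did not). The shares of gene lists given below were not adjusted for this. Of 34 contractile and actin genes listed in control, 10 held a member (29.4%, beside 17.5% of all control genes). Of these 10, 8 had a TGF-β1 position, as had 32 of the 34 (94.1%). MYLK and DST, a giant cytolinker with a member at 17.6%, were the 2 with none. VCL, the focal adhesion protein vinculin, had 1 position after TGF-β1 at 4.23% and 6 in control, with members at 20.4% and 12.2%. ACTN1, alpha-actinin-1, had 15 positions after TGF-β1 and 6 in control, and its member at 10.4% lay 2 bases from a TGF-β1 position of 5.97%.

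Of 27 genes of collagens and matrix proteins 9 held a member (33.3%), and 5 of the 9 had a TGF-β1 position, as had 19 of the 27. HSPG2, the basement membrane proteoglycan perlecan, had its only position at 15.99%. COL6A3, a collagen VI chain, had 4 positions after TGF-β1 and 6 in control, with a member at 15.5%. FBLN1, the glycoprotein fibulin-1, had a 3'UTR member at 13.8% and 2 TGF-β1 positions. FBN2, fibrillin-2, had 0 and 5 positions with a member at 12.03%. Of 15 matrix-processing genes 2 held a member: P4HB, a subunit of collagen prolyl hydroxylase, at 18.3% in its 3'UTR, and MMP14, a membrane-bound collagenase, at 10.03%. Both had 7 positions after TGF-β1, against 5 and 4 in control.

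Of 15 genes of TGF-β and SMAD signalling 3 held a member (20%). SMAD3, a receptor-regulated SMAD that carries the TGF-β signal, had 13.2% in a noncoding exon, and its 3'UTR base listed in both groups had 6.49% after TGF-β1 and 3.82% in control. SMAD5, of the BMP branch, had its only position in a 5'UTR at 12.5%. DAB2, an endocytic adaptor, had 12.3% at its member, and at a base listed in both groups 55.7% after TGF-β1 against 5.50% in control. Members of the Hippo pathway, which restrains the coactivator YAP1, were YAP1 itself at 11.4%, the kinase adaptor MOB1B at 22.1% and the cadherin FAT1 at 12.4%. These 3 of 15 genes (20%) had no TGF-β1 position, while 9 of the 15 had one.

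Of 63 ubiquitin ligase genes 16 held 21 members (25.4%). Of the 16, 7 had a TGF-β1 position, as had 33 of the 63 (52.4%). Besides WWP2, RNF40, UBR4 and RNF213, HERC2, a giant HECT ligase, had members at 35.6% and 21.9% and no other position. MARCHF8, a membrane ligase, had 25% and no TGF-β1 position. Of 21 deubiquitinase genes 4 held a member (19%), led by UCHL1 and by USP32 at 22.8%. OTUB1 at 14.9% and USP4 at 10.6% were the others, and of the 4 OTUB1 alone had TGF-β1 positions.

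Of 71 genes of histone modification and chromatin remodelling 13 held a member (18.3%). Of these, 6 had a TGF-β1 position, as had 37 of the 71 (52.1%). After RERE came CHD8, a remodeller that binds beta-catenin, at 27.9%, CHD2, and DNMT3B, a de novo DNA methyltransferase, at 18.4%, none of them listed after TGF-β1. DNMT1, the maintenance methyltransferase, had 1 position after TGF-β1 at 1.94% and 9 in control, with a member at 14.3%. DNMT1 was picked after its values were seen. Of 55 genes named ZNF, mostly zinc finger transcription factors, 13 held a member (23.6%). Of the 13, 4 had a TGF-β1 position (30.8%), as had 23 of the 55 (41.8%). ZNF548 had 31.55% and 25.8%, ZNF32 26.4%, ZNF142 21.6% and ZNF280A 20.5%, all without a TGF-β1 position.

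RNA modification genes held 4 members in 19 genes (21.1%). FTO, an RNA demethylase of m6A, had 14.9% in coding sequence, and ADAR, the adenosine deaminase, 13.97% in its 3'UTR. ZC3H13, a subunit of the m6A writer complex, had 10.1%. These 3 had no TGF-β1 position, against 2, 4 and 4 in control. IGF2BP2, an m6A reader, had 13.2% in its 3'UTR and 1 TGF-β1 position of 6.66%, 416 bases away in the same 3'UTR.

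In splicing 9 of 79 genes held a member (11.4%), 6 with a TGF-β1 position, among them RBM39 at 17.4% and PRPF8, the core spliceosome protein, at 13.3%. SF3B3, of the U2 particle, had 28.3% in its 3'UTR and 0 positions after TGF-β1 against 4 in control. The list also takes in, by its name, the pseudogene HNRNPA3P6 described above. Of 29 DDX and DHX helicase genes 3 held a member, DDX17 at 14.9%, DDX19A at 12.97%, a base shared with an overlapping gene, and DDX42 at 10.5%, and all 3 had a TGF-β1 position, the highest in DDX17 at 43.5%, 19812 bases from its member. Of 32 genes named as translation factors 3 held a member, EIF4G3, a scaffold of initiation, at 12.5% and the pseudogenes EEF1A1P5 and EEF1A1P9 at 11.6% and 11.0%, all without a TGF-β1 position.

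Of 35 genes of cytosolic ribosomal proteins 5 held a member (14.3%): RPS21 at 22.1%, RPL36 at 20.2%, RPS23 at 12.96%, RPL37 at 12.3% and RPS7 at 11.9%. RPS21 and RPL37 had no TGF-β1 position, against 1 and 4 in control. In energy metabolism NDUFS1, a subunit of complex I, was the member gene among 32 of oxidative phosphorylation, at 20.7% in its 3'UTR. Of 17 glycolytic genes 3 held a member: PFKFB4 at 13.4%, HK2, a hexokinase, at 12.3% and PKM, pyruvate kinase, at 10.3%. PKM had 11 positions after TGF-β1 and 2 in control, and the other 2 genes had none after TGF-β1. B2M was the member gene among 12 of MHC class I and peptide loading, all 12 of which had a TGF-β1 position.

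In membrane traffic 14 of 95 genes held a member (14.7%), and 7 of the 14 had a TGF-β1 position. AP1AR led, followed by SEC22A at 26.2%, SNX29 at 21.2% and RAB11FIP5 at 19.8%. Motor proteins had 3 of 34 (8.82%): the Hedgehog regulator KIF7 at 33.8%, with 6 positions after TGF-β1 and 4 in control, and KIF13A at 14.3% and KIF1B at 13.1%, with none after TGF-β1. Of 48 genes named SLC 11 held a member (22.9%), 7 with a TGF-β1 position. The highest, SLC2A4RG at 33.7%, is named for regulating a glucose transporter and is not a transporter itself. It was followed by SLC35B4 at 26.0%, SLC5A3, an inositol transporter, at 20.04% and SLC38A5 at 14.9%.

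The list of replication, cohesin and mitosis had 9 of 65 genes (13.8%), 6 with a TGF-β1 position. MCMBP, which binds the replicative helicase, had 23.7%, CCNDBP1 21.1%, NCAPD2, a condensin subunit, 20.7% and NIPBL, the cohesin loader, 17.6% in its 5'UTR. NIPBL had 1 TGF-β1 position, at 59.1% in coding sequence and 171466 bases away. Of 25 genes of the nuclear pore and transport 4 held a member: TPR, the nuclear basket protein, at 29.2% and 10.5%, IPO4 at 15.7%, NUP37 at 14.95% and KPNA6 at 11.4%. TPR had 0 positions after TGF-β1 and 3 in control. Of 44 genes of chaperones and folding 4 held a member (9.09%). XBP1, the transcription factor of the unfolded protein response, had 16.6% and 0 positions after TGF-β1, DNAJC19 27.9% and 0, and DNAJB2 and DNAJC8 had 11.5% and 10.9% and 2 and 5 TGF-β1 positions. The shares of genes with a member ran from 3.12% in oxidative phosphorylation to 33.3% in matrix proteins, around 17.5% in all control genes. The share of all control genes of a list with a TGF-β1 position was 42.1% in RNA modification, 52.0% in the nuclear pore list, 52.4% in deubiquitinases, 53.3% in TGF-β and SMAD signalling, 61.5% in replication and mitosis, 63.2% in membrane traffic, 68.8% in solute carriers, 70.6% in motor proteins, 75% in translation factors, 79.3% in helicases, 81.2% in oxidative phosphorylation, 81.8% in chaperones, 82.3% in splicing, 88.2% in glycolysis and 88.6% in ribosomal proteins. It was 62% over all control genes. None of the lists was tested, and none was adjusted for the number of control positions per gene.

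**Figure D5:**
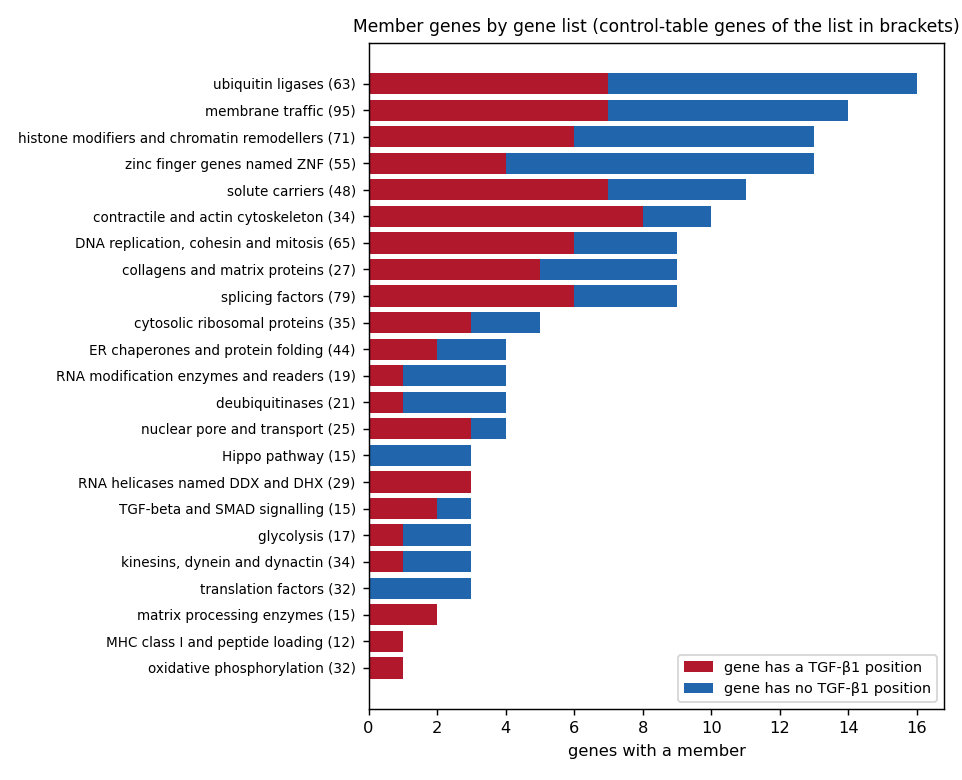
Number of genes with a member (x axis) in each of 23 gene lists, with the number of genes of the list in the control table in brackets. The left part of a bar counts genes with a TGF-β1 position and the right part genes with none: ubiquitin ligases have 7 and 9, ZNF genes 4 and 9, and contractile and actin genes 8 and 2.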

How the data were processed

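The data came from LX-2 cells in 2 TGF-β1 and 2 control libraries, grouped by their titles. The submitters' processing notes name build hg38 and, with no role or order, the tools STAR 2.7.6a, featureCounts and fastp 0.23.1. Not given in the sources used here are the position caller and how a group's libraries were combined. Per the file headers, the authors deposited for each position a diff column, which holds a fraction from 0.01 upward, and a p-value, with 1 line per overlapping transcript.

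Lines were merged by position, and a position counts for each gene it is annotated to. Positions are printed 1-based, and reading start plus 1 as the cytidine was checked in the RefSeq windows. Gene types came from the RefSeq gene table (741 of 767 member genes matched). Analyses used Python 3.11.15, pandas 2.3.3 and scipy 1.17.1, with 95% Wilson intervals for shares. No test was made, since each group has 1 value per position and the members were chosen by it. The counting steps were tested on 20 simulated pairs of tables, and all counts were recovered.

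The members, the 23 gene lists and the rule for named genes were chosen with earlier results of these data known. Named genes are the highest members, genes with most members, up to 4 per list, genes with most control positions and none after TGF-β1, genes with most TGF-β1 positions, members nearest to a TGF-β1 position, positions at the threshold, and members in RefSeq windows. Also named are cell type markers, NAT10, THUMPD1 and the highest control positions listed in both groups. Genes outside these are named as picked after their values were seen, or complete a list of which others are named. Alternatives changed the threshold, the p-value filter, the overlap that counts as shared, the genes and segments kept and the length of the TGF-β1 list.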

Additional observations from a re-analysis of the deposited data

How the results depend on the processing

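Of the 828 positions, 637 remained with p-values of exactly 0 left out and 790 when a TGF-β1 position within 50 bases counted as shared. Their number was 2481 at a threshold of 5%, 334 at 15% and 172 at 20%. The share of high control positions absent after TGF-β1 (82.1%) was 78.6% at 5%, 84.6% at 15% and 88.7% at 20%, 79.3% with authors' p-values under 0.001, 78.4% without p-values of 0, 78.3% with sharing within 50 bases and 85.1% with the TGF-β1 positions cut, by lowest p, to as many as in control. The share in coding sequence (61.4%) was 67.9% at 5%, 55.2% at 20% and 65.9% without noncoding exons, which only lowers the total. The share of genes with a TGF-β1 position (47.5%) was 42.0% at 20% and 40.4% with that shorter list. The share with a TGF-β1 position within 100 bases (6.28%) was 10.2% at 5%, 2.69% at 15%, 1.74% at 20%, 3.84% with sharing within 5 bases and 1.77% within 50. The cause of these moves was not tested, except that wider sharing removes the nearest positions by construction. Of 51 alternative values, 31 stayed within the interval or within 1.5 times of the reported one. No position had more than 1 segment, so counting every segment changed nothing. No paired analysis was possible because the tables hold no values per library, and for the same reason no replicate could be left out. Depth is unknown.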
